A study of Mus musculus with 4 samples.

Results

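The nuclear genes for subunits of the mitochondrial respiratory chain and ATP synthase were examined in mouse embryonic fibroblasts (MEFs) with and without Ip6k1, the gene for an inositol hexakisphosphate kinase that makes the inositol pyrophosphate 5-IP7. They were taken from the array by gene name: all names that begin with Nduf (complex I), Uqcr (complex III) or Atp5 (complex V), Cox4 to Cox8 with any suffix (complex IV), and Sdha, Sdhb, Sdhc and Sdhd (complex II). This gave 86 gene names on 125 probes, of 27827 gene names and 41174 probes on the array. Complex I contributed 39 names, complex II 4, complex III 7, complex IV 19 and complex V 17. A few of these names do not stand for a subunit: Ndufaf1 and Ndufaf2 are assembly factors of complex I, Cox7a2l encodes a factor of supercomplexes, Atp5s and Atp5sl encode accessory factors, and Cox4nb is an older name of Emc8, a gene outside the respiratory chain. They were kept, because the choice was made by name. The complex of each gene was also assigned by name alone, whatever its product is part of.

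Gene expression was compared between 2 Ip6k1+/+ MEF lines, called controls here, and 2 Ip6k1-/- lines, called knockouts. Each line was grown from a different embryonic day 14 embryo, and all 4 embryos came from a mating between heterozygous mice. All 4 lines, the controls included, express SV40 large T antigen, which immortalised them and limits them as a model to transformed, dividing cells. RNA of each line was hybridized in 1 colour to 1 whole-genome array, and all 4 arrays share a slide and a scan time. Signals are given as log2 values relative to the 75th percentile of the same array, and 2 values for a genotype are given in the order of replicates 1 and 2. The share of probes well above background lay between 52.0% and 55.5% on the 4 arrays. All 9 fibroblast markers checked were well above background in all 4 lines, but not all at like levels. Thy1 lay at 1.42 and 6.02 in controls and 3.98 and 5.52 in knockouts, a difference of 1.03, knockout minus control. Col3a1 and Pdgfrb differed by -1.26 and -1.20. Of the markers of other cell types, 2 of 6 for muscle (Acta1 and Tnnt2), 1 of 3 for endothelium (Kdr), 1 of 3 for blood (Cd68), 1 of 3 for neurons (Tubb3) and 0 of 4 for epithelium were above background in all 4 lines. Ip6k1 was read by 3 probes. Probe A_51_P213766 lay at 0.36 and 0.39 in controls but did not rise clearly over background on the knockout arrays. With its knockout values raised to the lowest signal above background, it was at least 34.9-fold stronger in controls. Probe A_52_P413035 gave at least 33.6-fold in the same way. The test used the values as measured, not this bound (A_51_P213766, limma with Benjamini-Hochberg adjustment, adjusted p = 0.0348). The remaining probe, A_51_P103718, stayed above background in every line, with 2.46 and 2.61 in controls and -1.98 and -1.225 in knockouts, 17.6-fold lower in knockouts (limma with Benjamini-Hochberg adjustment, adjusted p = 0.357).

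The respiratory chain hands electrons from NADH (complex I) and succinate (complex II) through complex III to oxygen at complex IV, and complex V, the ATP synthase, uses the proton gradient that complexes I, III and IV build. Most subunits are encoded in the nucleus and imported, while a few of the most hydrophobic ones are encoded in mitochondrial DNA. Several complex IV subunits exist as a ubiquitous isoform and an isoform found mainly in heart and skeletal muscle, testis or lung.

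Of the 86 gene names, 82 were well above background on all 4 arrays and entered the tests. Cox4i2, Cox7b2, Cox8b and Cox8c, isoforms of restricted tissue range, were above background in no line. No member gene reached an adjusted p of 0.05 in limma, with Benjamini-Hochberg adjustment across the 21573 tested probes. Counted on 1 probe per gene name, 0.00698% of the 14335 gene names tested did. The probe that stood for Ip6k1 in that count, A_51_P103718, did not (limma adjusted p = 0.357). At an unadjusted p below 0.05 limma gave 2 genes, Cox6a2 and Cox7c, both of complex IV. That is 2 of 82, beside 3.74% of all gene names. No member was at least 2-fold higher in knockouts, where 1.81% of all gene names were, and only Cox6a2 was at least 2-fold lower, where 4.69% of all gene names were. The median difference between genotypes over the 82 genes, knockout minus control, was 0.05 on the log2 scale, and 0.04 over all gene names. With quantile normalization in place of the percentile shift the members' median was -0.0024. It was 0.16 without control replicate 1 and -0.0595 without control replicate 2, so that its sign rests on which control is kept. The median size of the difference regardless of sign was 0.10 for the members and 0.23 for all gene names. The 95% interval of the difference lay within a 2-fold change in either direction for 73 of the 82 genes (89.0%) and for 45.6% of all gene names. The members were brighter: 50 of the 82 had a mean log2 signal of at least 4, beside 1352 of the 14335 gene names. The median standard error of the difference was 0.21 for the members and 0.31 for all gene names. The part of signal level in these comparisons was not tested. The intervals and p-values do not measure the spread between these cell lines alone. The fit draws each gene's variance toward a trend with signal level over all tested probes, so that standard errors depend on brightness in part by construction. Sdhd, for example, had an SD of 0.0071 between controls and 0.04 between knockouts, but a standard error of 0.17. The 2 lines per genotype limit the precision.

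**Figure D1:**
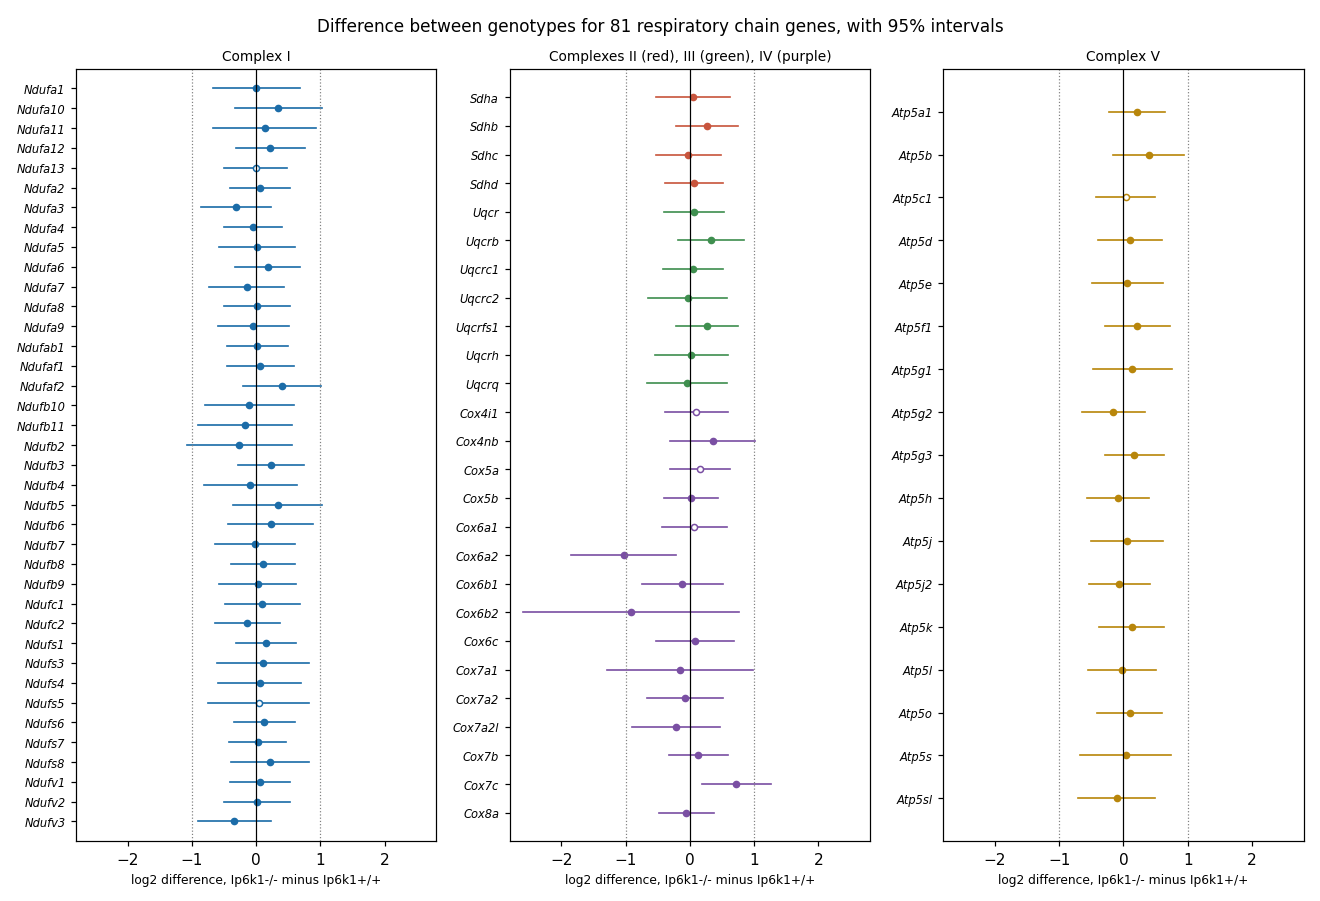
Log2 difference between Ip6k1-/- and Ip6k1+/+ MEFs for 81 of the 82 genes, by complex, with the 95% interval of the limma fit (n = 2 lines per genotype). Open circles mark genes whose probe was saturated on at least 1 array and dotted lines mark a 2-fold change. The intervals of Cox6a2 and Cox7c are the only ones that leave out 0, and 72 of the 81 intervals stay between the dotted lines.

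By complex, the median difference was 0.04 for complex I, 0.06 for complex II, 0.05 for complex III, 0.02 for complex IV and 0.05 for complex V. Each was smaller than the SD of the line medians within a genotype, which lay between 0.07 for complex II and 0.15 for complex III. Under quantile normalization the medians of complexes I, III and IV lay just below 0, at -0.0051, -0.0058 and -0.038. Both Ip6k1-/- lines lay above both Ip6k1+/+ lines for 15 of the 82 genes (18.3%), close to the 17.7% of all gene names. Both lay below for 5 genes (6.10%), beside 13.5% of all gene names. With quantile normalization, these counts were 15 (18.3%) and 11 (13.4%), beside 17.9% and 14% of all gene names.

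In complex I, all 7 core subunits, the conserved part that carries the flavin and the iron-sulfur clusters outside the membrane, had a slightly higher mean in knockouts, none of which passed the test, and Ndufv1 under quantile normalization and Ndufv2 under quantile and normexp processing had differences just below 0. The differences ranged from 0.02 for Ndufs7 and Ndufv2 to 0.21 for Ndufs8. Ndufv1, which binds the flavin and NADH, had log2 signals of 4.97 and 4.85 among controls and 4.88 and 5.06 in knockouts. Ndufs1, the largest of the iron-sulfur subunits, had 4.15 and 4.24 against 4.29 and 4.42. It was the only core subunit of complex I whose lines did not overlap between genotypes. Ndufs3, a subunit near the quinone site, differed by 0.10, less than the distance between its control lines at 3.09 and 3.70.

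The other 32 complex I genes, most of them accessory subunits around the core, had a median difference of 0.02. The most positive belonged to Ndufaf2, the assembly factor, with 3.36 and 2.92 in controls and 3.47 and 3.62 in knockouts, a difference of 0.40 (95% interval -0.20 to 1.01). Next came Ndufa10, an accessory subunit on the matrix side of the membrane arm, with 2.38 and 2.77 against 2.71 and 3.12. The most negative was Ndufv3, an accessory subunit of the NADH-binding part, with 2.24 and 2.07 against 1.95 and 1.68, a difference of -0.34 (95% interval -0.91 to 0.23). Its 3 probes gave -0.34, -0.29 and -0.22. Ndufa3, another accessory subunit, lay at 3.31 and 3.04 against 2.96 and 2.76. For Ndufv3 and Ndufa3 the lines of the 2 genotypes did not overlap, and limma's unadjusted p was 0.183 and 0.197.

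Complex II, the succinate dehydrogenase, has 4 subunits, all nuclear, and shares its reaction with the citrate cycle. Sdhb, the iron-sulfur subunit, had 3.43 and 3.26 in controls and 3.58 and 3.65 in knockouts. Its difference of 0.27 (95% interval -0.21 to 0.75, limma unadjusted p = 0.206) was the largest of the complex. The membrane anchors Sdhc and Sdhd differed by -0.03 and 0.07. For Sdha, the flavoprotein, the probes differed. A_52_P109503 gave 0.05, A_51_P410823 gave -0.15, and the dim A_52_P458708, above background on 3 arrays, gave -0.59. The Sdhb probe lies at chr4:140522514-140527081 (mm9, plus strand), a span of 4568 bases for a probe of 60, so that it bridges a splice junction. It is shown with probes for Cox4i1, a nuclear subunit of complex IV, and for the gene with the largest difference of complex V, as examples of what was read in each complex. The Cox4i1 probe lies at chr8:123197924-123197983 and the Atp5b probes at chr10:127522569-127522628 and chr10:127521478-127522156.
Sdhb A_51_P234853: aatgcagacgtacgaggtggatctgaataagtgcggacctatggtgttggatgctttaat
Cox4i1 A_51_P165435: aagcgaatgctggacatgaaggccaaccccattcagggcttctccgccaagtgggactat
Atp5b A_51_P207636: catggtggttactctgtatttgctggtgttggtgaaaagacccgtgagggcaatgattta
Atp5b A_52_P553841: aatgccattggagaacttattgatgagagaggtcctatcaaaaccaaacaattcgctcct

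In complex III, which oxidises ubiquinol and reduces cytochrome c, the 7 genes differed by -0.04 to 0.33. Uqcrb, a small subunit beside the quinone site, had 3.45 and 3.17 in controls and 3.61 and 3.66 in knockouts, a difference of 0.33 (95% interval -0.19 to 0.84). Uqcrfs1, the Rieske iron-sulfur protein, had 3.37 and 3.44 against 3.58 and 3.75. In both genes the Ip6k1-/- lines were higher without overlap, and limma's unadjusted p was 0.162 and 0.213. The core proteins Uqcrc1 and Uqcrc2 differed by 0.05 and -0.04, and Uqcrq, a small subunit, by -0.04.

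In complex IV, cytochrome c oxidase, differences ran from -1.03 to 0.72. Cox6a2, the heart and skeletal muscle isoform of subunit 6a, was dim but above background in all 4 lines. Its log2 signal was -1.25 and -1.62 in controls and -2.56 and -2.36 in knockouts. Both Ip6k1-/- lines were thus lower than both controls, by 1.03 on average (2.04-fold, 95% interval of the log2 difference -1.84 to -0.21, limma unadjusted p = 0.0237, adjusted p = 0.994). The difference was -0.72 with normexp background correction, -0.97 with a median shift and -0.998 with quantile normalization, all short of 2-fold. It was -0.84 without control replicate 1 and -0.93 without knockout replicate 1, also short of it. Of the 6 muscle markers, Myod1, Myog, Ckm and Myh6 were above background in no line, while Acta1 was at 3.28 and 1.92 against 2.26 and 1.65, and Tnnt2 at -4.78 and 1.03 against -2.13 and 1.52. The part of muscle transcripts in the Cox6a2 signal was not tested, and in bulk RNA fewer cells of a type and less RNA per cell cannot be told apart. Cox6a1, the ubiquitous form of subunit 6a, was saturated on all 4 arrays, which leaves no usable difference.

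Cox7c, a small subunit of the complex, was higher in both knockouts. It had 1.81 and 1.58 in controls and 2.37 and 2.47 in knockouts, a difference of 0.72 (95% interval 0.18 to 1.26, limma unadjusted p = 0.0190, adjusted p = 0.994). This was the largest positive difference among the 82 genes, at 1.65-fold. The array carries another probe that the files describe as Cox7c but name TC1666890, so that it was not among the members. It lay at -1.10 and -0.50 in controls and -2.36 and -2.03 in knockouts, a difference of -1.39 (95% interval -2.30 to -0.48, limma unadjusted p = 0.0117, adjusted p = 0.994). At the same locus, then, 1 probe was higher and the other lower in both Ip6k1-/- lines. Both lie on the minus strand in mm9, the Cox7c probe at chr13:86184486-86185363, across an intron, and the TC1666890 probe upstream of it on that strand, at chr13:86185921-86185980. Which transcript TC1666890 stands for was not tested. The first 30 bases of each are shown with those of the probes for Cox6a2 (chr7:135349160-135349219) and Cox6b2 (chr7:4703488-4703547), because these 4 tested probes carry the largest differences described here for respiratory chain genes, together with the whole Cox7a1 probe (chr7:30970337-30970948).
Cox7c A_52_P136153: aaataaggatatttaattcatccctttaac
TC1666890 A_52_P645285: tgaaggtcattggaaacaaaagaagagggc
Cox6a2 A_51_P509997: agcaatcttcaaattggccttctgcacacc
Cox6b2 A_51_P300506: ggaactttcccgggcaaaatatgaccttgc
Cox7a1 A_51_P148612: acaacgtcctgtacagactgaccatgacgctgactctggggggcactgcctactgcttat

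Cox6b2, the testis isoform of subunit 6b, had the second largest negative difference, -0.92 (95% interval -2.60 to 0.76), and its lines overlapped. Its log2 signal was 0.51 in control replicate 1 and -1.31, -1.34 and -1.30 in the other lines. Without that line the difference was -0.0064, and without control replicate 2 it was -1.83. Its ubiquitous partner Cox6b1 had 1.04 and 0.68 against 0.77 and 0.72. Cox7a1, the heart and muscle isoform of subunit 7a, also varied between lines of a genotype, with -1.99 and -1.31 against -1.42 and -2.20, while the ubiquitous Cox7a2 differed by -0.08. Of other nuclear subunits of complex IV, Cox5b differed by 0.02, and Cox4i1 and Cox5a by 0.10 and 0.16, each with 1 saturated array, knockout replicate 2. Cox7b and Cox8a, the ubiquitous forms of subunits 7b and 8, differed by 0.13 and -0.05. Cox4nb, no subunit, lay at 1.49 and 1.27 against 1.52 and 1.95.

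**Figure D2:**
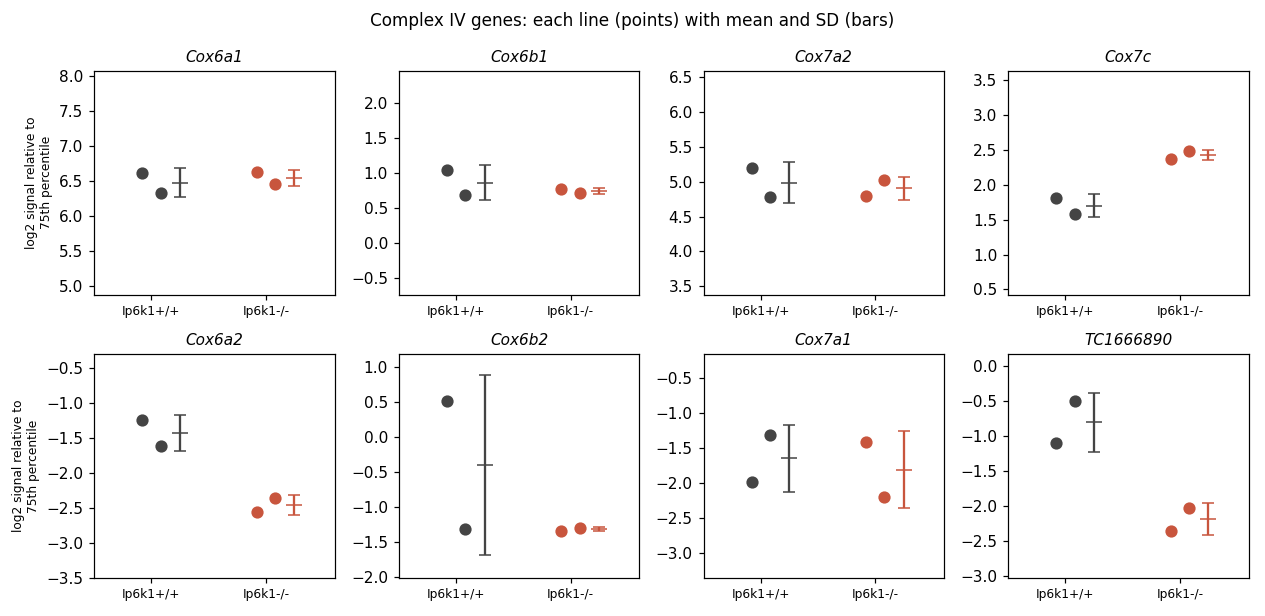
Log2 signal relative to the 75th percentile of the array for 7 complex IV genes and for TC1666890 in each of the 4 lines (points), with the mean and SD of each genotype (bars, n = 2). Panels have the same height of scale but different origins. The lines of the 2 genotypes separate for Cox6a2, Cox7c and TC1666890, and only Ip6k1+/+ replicate 1 stands out for Cox6b2. Cox6a1 was saturated on all arrays.

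In complex V, the differences ran from -0.16 to 0.39. The most positive was that of Atp5b, the catalytic beta subunit, with 5.26 and 5.55 in controls and 5.65 and 5.95 in knockouts (95% interval of the difference -0.16 to 0.94, limma unadjusted p = 0.124). A dimmer Atp5b probe gave 1.79 and 2.22 against 2.27 and 2.66, a difference of 0.46, and a further probe was saturated on all 4 arrays. Atp5a1, the alpha subunit, had 5.99 and 5.87 against 6.10 and 6.18, but its other tested probe had 4.88 and 5.02 against 4.96 and 5.03, with overlap. For Atp5g3 and both unsaturated Atp5b probes, the Ip6k1-/- lines were higher without overlap. Atp5f1, the b subunit of the peripheral stalk, differed by 0.21 with overlapping lines. The subunits of complex V in the central stalk (Atp5c1, saturated on 2 arrays, Atp5d and Atp5e) and the peripheral stalk (Atp5h, Atp5j, Atp5o), differed by -0.08 to 0.11.

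The rotor ring of complex V is built of subunit c, which 3 nuclear genes encode as the same mature protein. Atp5g1 differed by 0.14, Atp5g3 by 0.17 and Atp5g2 by -0.16. Atp5g2 had 5.98 and 5.69 in controls and 5.68 and 5.67 in knockouts, and its other probe, A_52_P287002, gave -0.21. Both Atp5g2 probes were lower in both knockouts, by a narrow margin in the brighter one, and neither passed the test. Atp5sl, whose product is not a subunit, differed by -0.10. The probe for Atp5g1 (chr11:95934924-95934983) and this other probe for Atp5g2 (chr15:102495586-102495645) have a longest identical run of 14 bases, in capitals below.
Atp5g1 A_51_P183292: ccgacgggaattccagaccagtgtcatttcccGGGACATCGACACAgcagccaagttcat
Atp5g2 A_52_P287002: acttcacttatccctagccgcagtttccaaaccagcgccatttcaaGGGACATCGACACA

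Gene names with more than 1 tested probe numbered 24. Their probes differed in the genotype difference by a median of 0.06, by less than 0.2 in 21 genes and by at most 0.64, in Sdha. All probes had the same sign in 22 of them.

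The median gap between the control lines exceeded the median difference between genotypes. Control replicate 2 was lower than replicate 1 for 62 of the 82 genes (75.6%), by a median of 0.25, and was the lowest of the 4 lines for 51. Over all gene names, it was lower for 52.9%, by a median of 0.03. Between the Ip6k1-/- lines the median gap over the members was -0.07. Among the 32 complex I genes outside the core, control replicate 2 was lower for 27, by a median of 0.30, but among the 7 core subunits only for 2, with a median of -0.09. Ndufs5, an accessory subunit, had the widest such gap in complex I, with 6.61 and 5.84 against 6.32 and 6.21, where the first value was saturated. Bright genes in general shared this gap. Over all gene names with a mean log2 signal of at least 4, it was 0.22, and for the 50 members in that range 0.29. With quantile normalization it was 0.03 for the 82 genes and -0.04 for all gene names, while complex I core and other subunits still had -0.32 and 0.09. The part of signal level in these gaps was not tested.

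**Figure D3:**
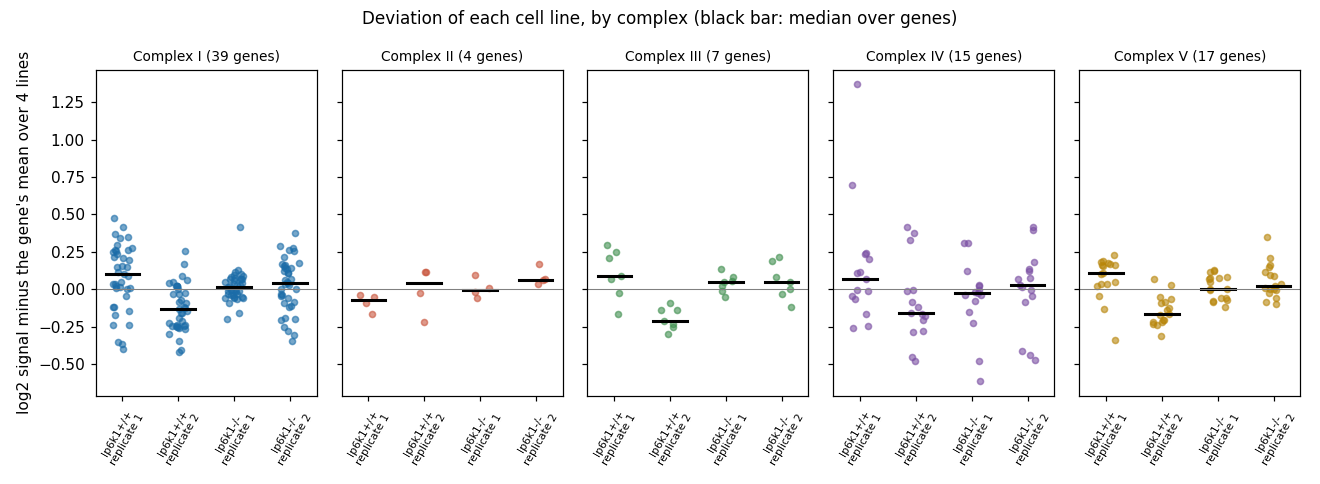
Deviation of each line's log2 signal from the gene's mean over the 4 lines, 1 point per gene, by complex, with the median over genes as a black bar. Ip6k1+/+ replicate 2 has the lowest median in complexes I, III, IV and V and not in complex II, and the Ip6k1-/- lines lie between the control lines in complexes I, III, IV and V.

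Genes that work beside the nuclear subunits were read as lists chosen by function, with earlier results of these data known. In none did limma call a gene. Of 8 tested genes for cytochrome c and for nucleotide and phosphate carriers, 2 (25%) had both Ip6k1-/- lines above both controls and none below. Of 25 assembly factors these counts were 6 (24%) and none, and of 18 citrate cycle genes 6 (33.3%) and none. Of 18 transcription regulators of mitochondrial genes they were 5 (27.8%) and none. Over all gene names the shares were 17.7% above and 13.5% below, and in lists this small 1 gene moves the percent by several points. The assembly factors included Tmem186, of complex I assembly, at -3.03 and -1.02 against -0.61 and -0.57, a difference of 1.43 in which control replicate 1 stands lowest. Of COX2 and CYTB, encoded in mitochondrial DNA, CYTB differed by 0.08. COX2 was saturated on all 4 arrays, which leaves no usable difference.

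Mitochondrial ribosomes make the subunits encoded in mitochondrial DNA, and the import machinery brings in the nuclear ones. Of 75 mitochondrial ribosomal proteins, 35 (46.7%) had both Ip6k1-/- lines above both controls and 4 had both below, with a median difference of 0.18. Of 22 genes for mitochondrial protein import, 11 (50%) lay above and 2 (9.09%) below, with a median of 0.33. Over all gene names the shares were 17.7% above and 13.5% below. The knockouts were not alike: replicate 1 lay below replicate 2 for 58 of the 75 (77.3%) and 20 of the 22 (90.9%). Over all gene names this held for 56.7%. The median gap between these 2 lines was -0.17 and -0.25, beside -0.07 over all gene names. The controls differed too. Control replicate 2 lay below replicate 1 for 48 of the 75 (64%) and 12 of the 22 (54.5%), beside 52.9% of all gene names. Across the scalings tried, 32 to 39 ribosomal proteins and 11 to 13 import genes lay above, with medians of 0.15 to 0.24 and 0.31 to 0.38. Values with single arrays left out are not given here for these lists. No member of either list passed the test, and both lists were chosen with earlier results of these data known. Hspd1, the matrix chaperonin Hsp60, was the only one past 2-fold, with 1.504 and 2.99 against 2.85 and 3.68, and its lines overlapped. Tomm22, a receptor of the outer membrane translocase, was lower in both knockouts, with 3.45 and 2.86 against 2.11 and 2.35, a difference of -0.93 (limma unadjusted p = 0.0219, adjusted p = 0.994).

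**Figure D4:**
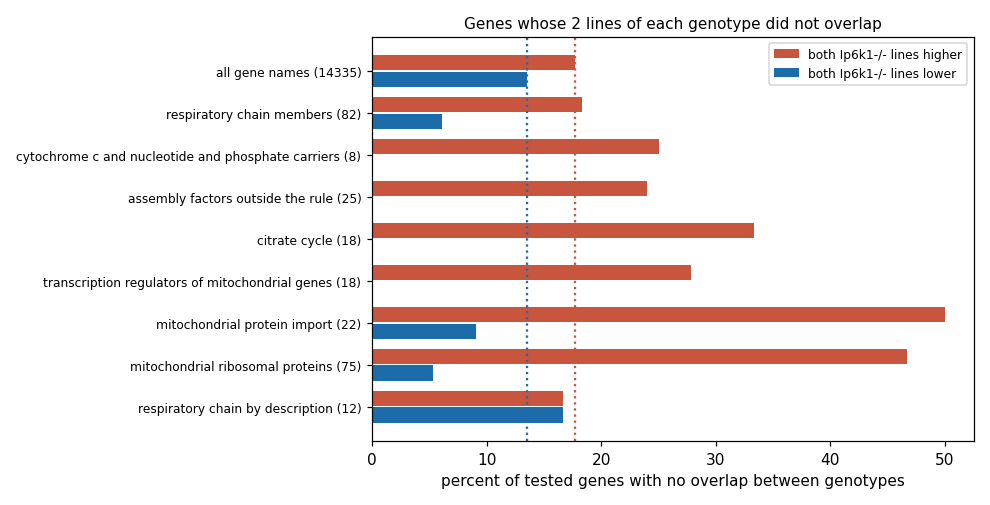
Percent of tested genes in each list whose 2 Ip6k1-/- lines both lay above (red) or both below (blue) the 2 Ip6k1+/+ lines, with the number of genes tested in brackets. Dotted lines mark the shares over all gene names, 17.7% and 13.5%. Respiratory chain members sit at 18.3% and 6.10%, and mitochondrial ribosomal proteins at 46.7% and 5.33%.

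The promoters of respiratory chain genes were searched for short motifs, which the naming rule did not use. RefSeq windows from 250 bases before to 50 bases after a transcription start (GRCm38.p6) were at hand for 71 of the 86 genes, in 77 windows, and were searched on both strands. The motif of the nuclear respiratory factor NRF1 (GCGC, then any base, then TGCGC) was in 23.4% of the member windows and in 4.6% of all 32851 windows. The core motif of ETS factors such as GABP, CCGGAAG, was in 22.1% and 8.86%. The YY1 motif AAGATGGCG, which can overlap the end of the ETS motif, was in 11.7% and 1.4%, and a TATA box, TATAAA, in 10.4% and 13.6%. Any of the NRF1, ETS and YY1 motifs was in 49.4% of member windows and 13.6% of all windows, and 35 of the 71 genes had none. These are matches of letters, with no binding measured. The windows of Sdhd and Cox6a1 hold both an NRF1 and an ETS match before the start, and the 120 bases before the start are shown for them, with both matches, which lie on the opposite strand, in capitals, at chr9:50603850-50603969 and chr5:115348959-115349078 (GRCm38.p6, minus strand, read 5′ to 3′). Sdhd had 3.99 and 4.00 in controls and 4.03 and 4.09 in knockouts.
Sdhd promoter: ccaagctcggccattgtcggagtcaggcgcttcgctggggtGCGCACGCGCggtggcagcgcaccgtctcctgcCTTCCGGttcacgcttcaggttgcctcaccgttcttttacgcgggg
Cox6a1 promoter: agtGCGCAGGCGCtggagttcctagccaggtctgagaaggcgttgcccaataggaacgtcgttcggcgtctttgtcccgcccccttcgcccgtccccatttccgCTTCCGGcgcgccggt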

How the data were processed

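Expression was measured in 4 MEF lines on single-colour Agilent arrays. The authors deposited scanner output of Feature Extraction 10.5.1.1 for every array: spot intensity on a linear scale, corrected for background by that software, flags for outlier, saturated and well-above-background spots, and probe positions in mm9. A second table deposited by the authors holds log2 values, shifted in GeneSpring to the 75th percentile. Its column medians are -4.08, -4.04, -4.08 and -4.13, and apart from 1 offset for each array it differed from the values computed here by a median of 0.0025 and by up to 5.81 for single probes, so that for most probes scale and direction were the same and genes were not centred.

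Outlier spots (96 to 133 per array) were left out and saturated ones kept. Log2 processed intensity was averaged over the spots of a probe, after subtraction of the array's 75th percentile over spots that are not controls (606.7, 745.8, 611.2 and 678 in intensity units). A probe was tested if both arrays of either genotype flagged it well above background (21573 probes, 14335 gene names), and the brightest such probe without saturation on any array stood for its gene, or the brightest of all where every probe was saturated somewhere (6 members). The test was limma 3.58.1 in R 4.3.3 (lmFit, then eBayes with a variance trend), adjusted after Benjamini-Hochberg across the tested probes, beside a cutoff of 2-fold. It was run on simulated data with known differences, where the mean estimate was required to lie close to the true size. How many 2-fold differences it would call with these 4 lines is not given here. The number of arrays limits the precision.

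Members and lists were chosen with earlier results of these data known. Genes named are Ip6k1, a list of central subunits, tissue isoforms with their ubiquitous forms, the 2 largest rises and falls of each complex, members past a cutoff, the 3 widest gaps between lines of a genotype, and list genes past 2-fold. Others, such as Tomm22, TC1666890 and AK144853, were chosen after their values were seen. Alternatives were normexp (offset 50), quantile and median scaling, the deposited log2 values, other filters and a floor for dim probes, probe means, eBayes without the trend, the methods' t-test, a replicate block, a stricter fold rule and omission of single arrays. Further ones were added after seeing the data: subunits alone, members without saturation, and the control gap under each scaling. A block for slide or scan was not run, since all 4 arrays share both. 1 item is not reported here.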

Additional observations from a re-analysis of the deposited data

How the results depend on the processing

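No member was called under any alternative run. The count of members at least 2-fold lower, 1, was 0 with normexp background correction, quantile normalization and a median shift, as Cox6a2 lies close to the cutoff. The count with both Ip6k1-/- lines below both controls, 5, was 11 with quantile normalization. Leaving out single arrays gave 0 to 2 members with an unadjusted p below 0.05 and 0 to 2 at least 2-fold lower, with the Ip6k1-/- lines above for 19 to 57 and below for 9 to 43. These counts were 57 above and 12 below without control replicate 1, and 25 and 43 without control replicate 2. They were 28 and 9 without knockout replicate 1, and 19 and 11 without knockout replicate 2. With an array left out, fewer lines can overlap by construction, and no share over all gene names stands beside these counts. They are therefore not read as a result about the members. The median ranged from -0.0595 to 0.16 over all members, -0.074 to 0.14 for complex I, -0.014 to 0.13 for complex II, -0.058 to 0.23 for complex III, -0.056 to 0.13 for complex IV and -0.089 to 0.24 for complex V. The lowest came without control replicate 1 for complex II and without control replicate 2 otherwise, and the highest without the other control, so that each median changed sign with 1 control left out. The lone line of a genotype is then assumed to vary like the others.

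The labels link same-numbered lines of the 2 genotypes by a number alone. Replicate 1 minus replicate 2 correlated at 0.48 between genotypes across 21573 probes, so that the gaps between lines ran partly in parallel. The source of this was not tested. The main test and the counts of lines without overlap leave this link out, and the main test gave an unadjusted p below 0.05 for 3.74% of all gene names. With the replicate block, 0 members were called and 2 had an unadjusted p below 0.05, Cox6a2 and Cox7c, beside 9.05% of all gene names. In the methods' t-test, 2 members passed before and 0 after Benjamini-Hochberg adjustment, beside 3.9% and 0% of all gene names. Saturation limits 6 members.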

Other observations

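Some gene names are tied to the respiratory chain by the array's descriptions but fall outside the naming rule. Of 12 that were tested, TC1666890 alone was past 2-fold. It was lower, where 4.69% of all gene names were at least 2-fold lower. Both knockouts lay above both controls for 2 (16.7%) and below for 2 (16.7%), close to the 17.7% and 13.5% of all gene names. AK144853, read on mitochondrial DNA, lay at 4.62 and 4.90 in controls and 4.90 and 4.93 in knockouts. Extra dim probes of 3 members were above background in 1 line each. A_51_P212342 of Ndufv2 was at -3.86 in control replicate 2, A_52_P330201 of Atp5sl at -4.52 in the same line, and A_52_P550474 of Atp5j2 at -4.41 in knockout replicate 2. The brighter probes of these genes differed between genotypes by 0.02, -0.10 and -0.06.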
